A study of Mus musculus with 2 samples.

Results

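The Hippo pathway genes described here are 10 genes, namely the kinases Stk3, Stk4, Lats1 and Lats2, the coactivators Yap1 and Wwtr1, and the transcription factors Tead1, Tead2, Tead3 and Tead4. They were matched by symbol to the 55536 genes of the GENCODE M21 quantification, and all 10 were found. Limbs of healthy B6NCrl mouse embryos of both sexes were collected at 12.5 days of development, and polyA plus RNA was sequenced from oligo-dT primed cDNA. The samples form 1 group of 2 biological replicates, replicate 1 from a pool of 88 embryos and replicate 2 from a pool of 68 embryos. The input was 10 ng of RNA per library, and ERCC spike-ins were added. There is no control, treatment or second tissue, so levels are described and differences between the libraries are differences between 2 pools.

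In the Hippo pathway, the Mst kinases (products of Stk3 and Stk4) activate the Lats kinases, which phosphorylate Yap and Taz, the products of Yap1 and Wwtr1. Phosphorylated Yap and Taz are held in the cytoplasm by 14-3-3 proteins or degraded, and unphosphorylated Yap and Taz enter the nucleus, bind Tead factors and activate genes of growth and survival. The pathway is known for the control of organ size, and in the skeleton Yap and Taz are known to act in cartilage cells. The state of the pathway is set by phosphorylation, which RNA levels do not measure.

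Levels are in TPM, a measure of transcript abundance normalised for transcript length and depth. All 10 genes were at 1 TPM or more in both libraries, against 15181 of the 55536 genes of the quantification. Their mean levels had a median of 23.3 TPM, against 15.3 TPM over the 15926 genes with a mean of at least 1 TPM. Tead2 was the most abundant and Tead4 the least abundant of the 10. In bulk tissue, fewer cells of a type and less RNA per cell cannot be told apart.

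Total expected counts over genes were 29633457 in replicate 1 and 30118921 in replicate 2, and spike-ins took 7.34% and 5.13% of the TPM. All 9 limb mesenchyme markers (Msx1, Prrx1, Prrx2, Pitx1, Lhx9, Hoxd13, Twist1, Tbx5 and Tbx4) were between 28.4 and 389 TPM in both libraries. Markers of other cell types of the limb were present too, with summed levels of 292 TPM in replicate 1 and 268 TPM in replicate 2 for epithelium (Krt14, Krt5, Epcam, Trp63, Cdh1) and 616 and 595 TPM for muscle (Actc1, Tnnt1, Myog, Myod1). The sums were 118 and 112 TPM for endothelium (Egfl7, Pecam1, Kdr, Cdh5), 67.6 and 64.0 TPM for macrophages (Pf4, C1qb, Csf1r, Ptprc) and 13.2 and 20.7 TPM for neurons (Tubb3, Stmn2, Snap25, Elavl3).

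**Figure D1:**
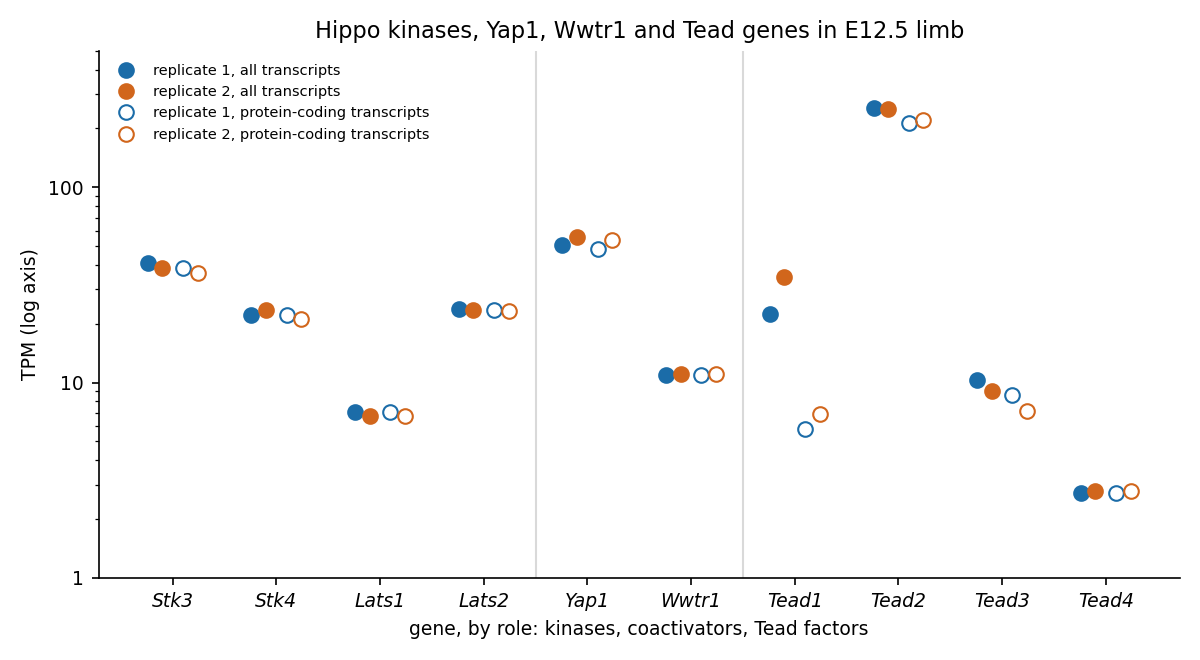
TPM (log axis) of each of the 10 genes in replicate 1 (blue) and replicate 2 (orange), over all annotated transcripts (filled) and over protein-coding transcripts alone (open). Tead2 stands above 200 TPM on both measures, and Tead1 is near 20 to 35 TPM over all transcripts but 5.81 and 6.87 TPM over protein-coding transcripts.

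Among the upstream kinases, Stk3 was above Stk4. Stk3 (ENSMUSG00000022329.15, chr15:34875496-35178921 on mm10, minus strand), which codes for Mst2, had 41.0 TPM in replicate 1 and 38.5 TPM in replicate 2, a mean of 39.7 ± 1.76 TPM (SD, n = 2). Stk4 (ENSMUSG00000018209.15, chr2:164070322-164155524, plus strand), which codes for Mst1, had 22.1 TPM in replicate 1 and 23.6 TPM in replicate 2, a mean of 22.8 ± 1.07 TPM. The ranges of the 2 genes did not overlap. Stk3 over Stk4 was 0.89 in replicate 1 and 0.71 in replicate 2 on the log2 scale, a mean ratio of 1.74-fold. The spread set beside such ratios comes from the 500 genes closest in mean TPM to the lower gene of a pair. It is the value under which 95% of their absolute log2 ratios between libraries fall, here 0.39. The spread covers differences between the 2 libraries, and not errors in a gene's level that both libraries share. Genes are called apart when both libraries give the same direction and the smaller ratio is over that spread, because a permutation test of 2 values against 2 cannot pass 0.05.

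Of the Lats kinases, which phosphorylate Yap and Taz directly, Lats2 was the more abundant. Lats1 (ENSMUSG00000040021.13, chr10:7681214-7716460, plus strand) had 7.07 TPM in replicate 1 and 6.73 TPM in replicate 2, a mean of 6.90 ± 0.240 TPM (SD, n = 2). Lats2 (ENSMUSG00000021959.16, chr14:57689662-57758388, minus strand) had 23.9 and 23.6 TPM, a mean of 23.7 ± 0.219 TPM. Lats1 over Lats2 was -1.76 and -1.81 on the log2 scale against a spread of 0.58, so that Lats2 was 3.44-fold above Lats1 and held 77.2% and 77.8% of their summed TPM. Lats2 shares 2955 exon bases with Gm49361, an annotated gene on the same strand listed at 0 TPM in both libraries. Its level is uncertain to the extent that reads could be split between them, and the authors' posterior SD of its reads was 4.86 of 2294 reads in replicate 1 and 4.28 of 2272 reads in replicate 2.

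Yap1 was well above Wwtr1. Yap1 (ENSMUSG00000053110.13, chr9:7931999-8004596, minus strand) had 50.6 TPM in replicate 1 and 55.5 TPM in replicate 2, a mean of 53.0 ± 3.46 TPM (SD, n = 2). Wwtr1 (ENSMUSG00000027803.14, chr3:57455649-57575910, minus strand), which codes for Taz, had 10.92 and 11.04 TPM, a mean of 10.98 ± 0.0849 TPM. Yap1 over Wwtr1 was 2.21 and 2.33 on the log2 scale against a spread of 0.45, a mean ratio of 4.82-fold. Yap1 held 82.2% and 83.4% of the summed TPM of the pair.

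The Tead factors, which bind DNA and carry Yap and Taz to their target genes, were unequal in level. Tead2 (ENSMUSG00000030796.17, chr7:45215753-45233644, plus strand), known for its expression in embryos, had 255 TPM in replicate 1 and 252 TPM in replicate 2, a mean of 253 ± 1.88 TPM (SD, n = 2). It ranked 622 of the 15926 genes tested, and it held 87.8% and 84.4% of the summed Tead TPM. Tead1 (ENSMUSG00000055320.17, chr7:112679318-112906807, plus strand), known for its need in heart development, had 22.4 TPM in replicate 1 and 34.8 TPM in replicate 2. Tead1 is the member on which the libraries lay farthest apart, with a mean of 28.6 ± 8.75 TPM. Tead3 (ENSMUSG00000002249.21, chr17:28331671-28350817, minus strand) had 10.3 and 9.02 TPM, a mean of 9.66 ± 0.905 TPM. Tead4 (ENSMUSG00000030353.15, chr6:128224288-128300823, minus strand), known for its part in forming the trophectoderm of the early embryo, had 2.71 and 2.77 TPM, a mean of 2.74 ± 0.0424 TPM. All 6 pairs of Tead genes were apart by the spread, with Tead2 9.07-fold above Tead1, 26.3-fold above Tead3 and 92.5-fold above Tead4.

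Each Tead gene has a 63-base coding exon in the part that codes for the TEA domain, the DNA-binding domain that names the family, and Tead1 has a pair of them. The exons are shown on mm10 from 5′ to 3′, to let the paralogues and the pair of Tead1 exons be compared. Capitals mark the bases that differ from the exon used in Tead1-202, the protein-coding Tead1 transcript with the most TPM.
Tead1-202 (chr7:112842040-112842102, plus strand): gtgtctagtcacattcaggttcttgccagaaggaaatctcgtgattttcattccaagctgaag
Tead1-201, additional exon (chr7:112841888-112841950, plus strand): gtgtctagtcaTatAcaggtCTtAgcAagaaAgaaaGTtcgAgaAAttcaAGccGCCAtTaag
Tead2-201 (chr7:45219144-45219206, plus strand): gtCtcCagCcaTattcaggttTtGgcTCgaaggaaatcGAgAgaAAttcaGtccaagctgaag
Tead3-201 (chr17:28336511-28336573, minus strand): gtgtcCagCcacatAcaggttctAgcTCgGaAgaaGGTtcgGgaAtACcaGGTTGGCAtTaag
Tead4-201 (chr6:128251540-128251602, minus strand): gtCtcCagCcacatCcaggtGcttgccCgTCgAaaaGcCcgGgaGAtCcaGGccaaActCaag
The Tead2 exon was identical to that of Tead1-202 at 49 of 63 bases (77.8%), the Tead4 exon at 44 (69.8%) and the Tead3 exon at 39 (61.9%). The additional exon of Tead1-201 was identical to it at 44 of 63 bases (69.8%), and to the Tead3 exon at 46 (73.0%).

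The annotated start codons also differ between Tead transcripts, and the first 30 coding bases are shown with the start codon in capitals.
Tead1-202 (chr7:112759483-112759512, plus strand): ATGgaaaggatgagcgactcggcagataag
Tead2-201 (chr7:45217219-45217248, plus strand): ATGggggatccccggactggggcccccctg
Tead3-201 (chr17:28341599-28350595, minus strand, across an intron): ATGcaactcggaggcctcgcgcgcagaggc
Tead3-206 (chr17:28341521-28341550, minus strand): ATAgcgtccaacagctggaccgccaacagc
Tead4-201 (chr6:128271043-128271072, minus strand): ATTacctccaacgagtggagctctcccgac
Tead1-202, Tead2-201 and Tead3-201, the leading Tead3 transcript, are annotated to start at ATG. In contrast, Tead3-206, second among Tead3 transcripts by estimated TPM, starts at ATA and Tead4-201 at ATT. All 5 annotated Tead4 transcripts and 3 of the 9 Tead3 transcripts are annotated with a start other than ATG.

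Over the 9 pairs of members next to each other in mean TPM, 4 were apart by the spread. Tead2 was 4.79-fold above Yap1, Yap1 was 1.33-fold above Stk3, Stk4 was 2.08-fold above Wwtr1 and Lats1 was 2.52-fold above Tead4. Stk3, Tead1, Lats2 and Stk4 followed each other without a difference beyond the spread between neighbours, and so did Wwtr1, Tead3 and Lats1. Within families, all 9 pairs were apart. Being apart means only that a ratio was beyond the spread between the libraries. The share of pairs of other genes that are apart was not computed. The counts of pairs apart, here and for the Tead genes, therefore describe these genes and do not set paralogues against other pairs.

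The level of Tead1 depended on which annotated transcripts were counted. Protein-coding transcripts had 5.81 TPM of Tead1 in replicate 1 and 6.87 TPM in replicate 2, which is 25.9% and 19.7% of its TPM. Transcripts of the type retained intron, annotated RNAs that keep an intron and have no coding sequence, had 16.4 and 27.7 TPM, or 73.2% and 79.7%. In both libraries the retained-intron transcripts therefore had the larger share of TPM. A retained-intron share as high or higher was found in 99 of 13028 protein-coding genes tested (0.760%), whose median share was 1.89%. A protein-coding share as low or lower was found in 387 of them (2.97%), against a median of 90.9%. Both comparisons with other genes use shares of TPM, and neither was made for shares of reads.

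The shares of reads were the other way round. Protein-coding transcripts took 943 of the reads of Tead1 in replicate 1 and 1095 in replicate 2, or 77.5% and 70.4%, and retained-intron transcripts took 272 and 457 reads, or 22.3% and 29.4%. The protein-coding Tead1-202 is 9480 nt long, while Tead1-209, the transcript with the most TPM, is 646 nt long and had 10.4 TPM on 112 reads in replicate 1 and 15.7 TPM on 171 reads in replicate 2. TPM divides reads by length, so a read on the short transcript adds more to it. Tead1-214 (894 nt) had 4.38 and 9.61 TPM, and Tead1-215 (2841 nt) had 1.68 and 2.44 TPM. These 3 retained-intron transcripts share 335 bases, chr7:112842040-112842374 on mm10, made of the 63-base exon of Tead1-202 and the first 272 bases of the intron after it. The bases at this exon's end and the start of the intron are shown as annotated in Tead1-209, with the GT at the intron's start in capitals.
Tead1-209 (chr7:112842088-112842117, plus strand): cattccaagctgaagGTatgcgcttttctg
Counts of reads across splice junctions were not part of the data used here, so the retention itself was not measured. As annotated, Tead1-209 also keeps the bases between the additional exon of Tead1-201 and the exon of Tead1-202. Its 361 bases outside the exons of Tead1-201 lie within chr7:112841951-112842374.

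**Figure D2:**
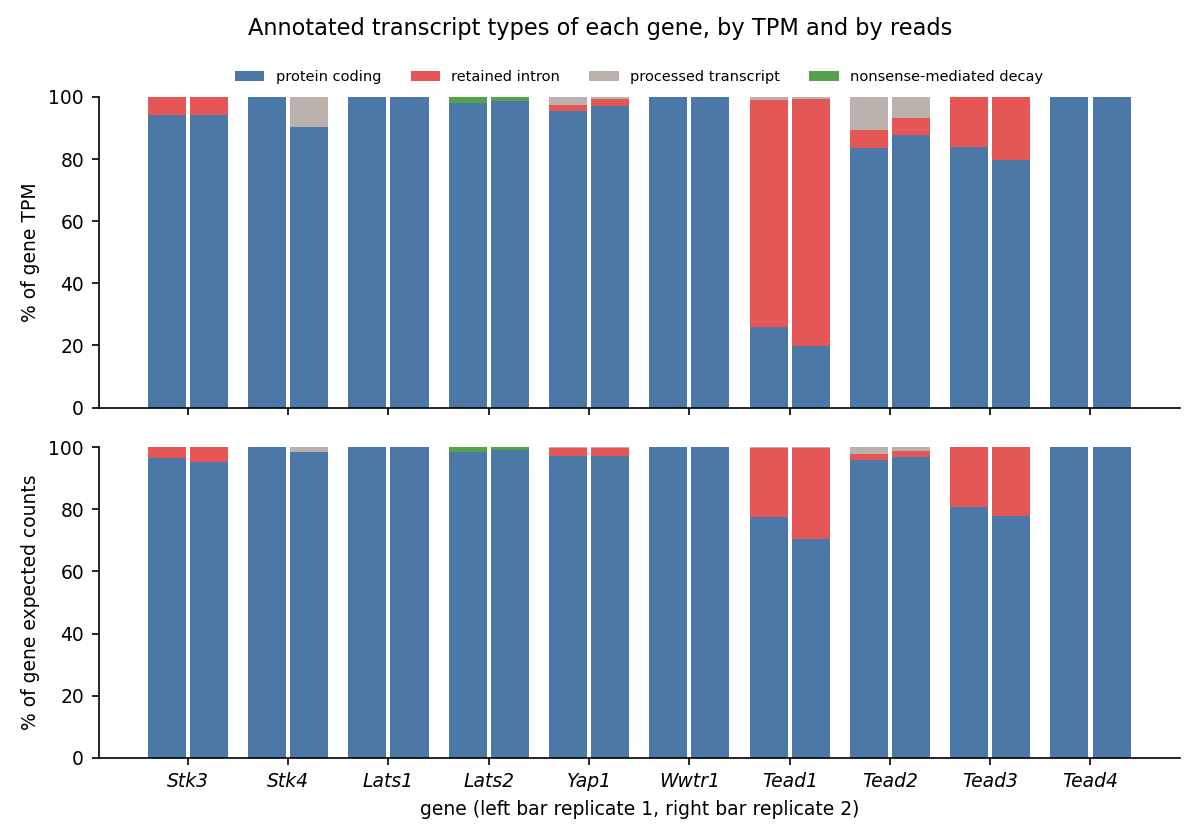
Percent of each gene's TPM (upper panel) and of its expected counts (lower panel) by annotated transcript type, with replicate 1 as the left bar and replicate 2 as the right bar. Retained-intron transcripts (red) hold 73.2% and 79.7% of Tead1 by TPM and 22.3% and 29.4% by reads, and protein-coding transcripts (blue) hold most of each of the other 9 genes.

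Over protein-coding transcripts alone, Tead1 averaged 6.34 ± 0.750 TPM (SD, n = 2), next to Lats1 at 6.90 ± 0.233 TPM and above Tead4 at 2.74 ± 0.0424 TPM. Tead1 and Lats1 were not apart, with log2 Lats1 over Tead1 at 0.28 in replicate 1 and -0.030 in replicate 2 against a spread of 0.56. On that measure Tead2 averaged 217 ± 6.05 TPM, was 34.4-fold above Tead1 and held 92.5% and 92.9% of the Tead TPM. Tead3 averaged 7.91 ± 1.03 TPM and was no longer apart from Tead1, and 8 of the 9 pairs within families stayed apart. Yap1 (51.1 ± 3.91 TPM), Stk3 (37.4 ± 1.60 TPM), Lats2 (23.4 ± 0.0919 TPM) and Stk4 (21.7 ± 0.552 TPM) followed Tead2 in that order.

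Yap1 was made up mainly of transcripts that differ in 1 coding exon. Yap1-202 held 73.7% of Yap1 TPM in replicate 1 and 76.9% in replicate 2, a mean of 75.3% ± 2.27 (SD, n = 2). Yap1-201 held 20.0% and 16.7%, a mean of 18.4% ± 2.35. Yap1-201 has a coding sequence of 1464 bases and Yap1-202 one of 1416, the difference being a 48-base exon in the part that codes for the transactivation domain, shown because it is the part by which the transcripts differ.
Yap1-201 exon (chr9:7950492-7950539, minus strand): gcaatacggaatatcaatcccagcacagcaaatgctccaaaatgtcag
The transcript without the exon was the more abundant in both libraries. Wwtr1 had 1 main transcript, Wwtr1-201, with 97.5% in replicate 1 and 100% in replicate 2.

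Tead4 was split between transcripts with and without a 129-base coding exon. Tead4-201, with the exon, held 55.4% of Tead4 TPM in replicate 1 and 44.0% in replicate 2, on 88.3 and 72.3 reads. Tead4-203, without it, held 44.6% and 46.6%, on 38.8 and 41.5 reads. By TPM, the order of the 2 transcripts differed between the libraries, while by reads Tead4-201 led in both. The reads behind either order were few. The exon is shown as the only coding part by which they differ.
Tead4-201 exon (chr6:128247960-128248088, minus strand): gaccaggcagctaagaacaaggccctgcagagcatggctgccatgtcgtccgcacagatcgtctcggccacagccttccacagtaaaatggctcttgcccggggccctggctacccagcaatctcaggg
The other Tead genes had 1 leading protein-coding transcript each. Tead2-201 held 74.4% and 78.6% of Tead2. Tead2-204, a processed transcript of 460 nt, was second to it by TPM, with 9.67% and 5.94%, but held 1.95% and 1.14% of the reads. The protein-coding Tead2-203, of 3396 nt, held 5.28% and 5.87% of the TPM and 9.71% and 10.2% of the reads. The order of these 2 transcripts thus depended on the measure. Tead3-201 held 56.0% and 53.9% of Tead3, Tead3-206 held 20.2% and 17.9%, and the retained-intron transcript Tead3-202 held 11.7% and 12.5%. The order of the last 2 is loosely set. The authors' deposited interval of Tead3-206 (0.671 to 3.49 TPM in replicate 1, 0.211 to 2.91 TPM in replicate 2) contained that of Tead3-202 in both libraries. Among Tead1 coding transcripts, Tead1-202 held 22.4% and 11.3% of the gene. By reads, Tead1-202 held 76.5% in replicate 1 and 47.5% in replicate 2. Tead1-201, which holds the additional 63-base exon, was listed at 0 TPM in replicate 1 and had 5.00% of the TPM in replicate 2. Those were 342 reads, or 22.0% of the reads of Tead1 in replicate 2. The retained-intron transcripts Tead1-209 (46.2% and 45.1% of the gene) and Tead1-215 (7.49% and 7.01%) also hold that additional exon.

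The kinases were each led by the transcript of full coding length. Lats1-202 held 99.4% of Lats1 in replicate 1 and 99.5% in replicate 2. Lats2-201 held 87.8% and 88.4% of Lats2, and Lats2-207, which lacks the last exon of Lats2-201 and has 2685 coding bases against 3126, held 8.08% and 7.09%. Stk3-201 held 76.5% and 81.4% of Stk3. Stk3-205, which has another first exon and a coding sequence of 1485 bases against 1491, held 17.6% and 12.9%. Its TPM is loosely set, since the authors' deposited interval, of a level not given in the labels, ran between 0.330 and 11.4 TPM in replicate 1 and between 0.610 and 8.81 TPM in replicate 2. Stk4-201 held 80.6% of Stk4 in replicate 1 and 69.3% in replicate 2. Stk4-202, which shares 2 of the 11 coding exons of Stk4-201 and has 126 codons against 487, held 12.2% and 6.11%. Its TPM is loosely set too, with a deposited interval of 1.11 to 4.21 TPM in replicate 1 and 0.000207 to 2.64 TPM in replicate 2. By reads, Stk4-201 held 88.6% in replicate 1 and 90.4% in replicate 2, so its shares of TPM and of reads differed between the libraries in opposite directions. The short Stk4-205, listed at 0 TPM in replicate 1, held 9.76% in replicate 2 on 27.8 reads.

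**Figure D3:**
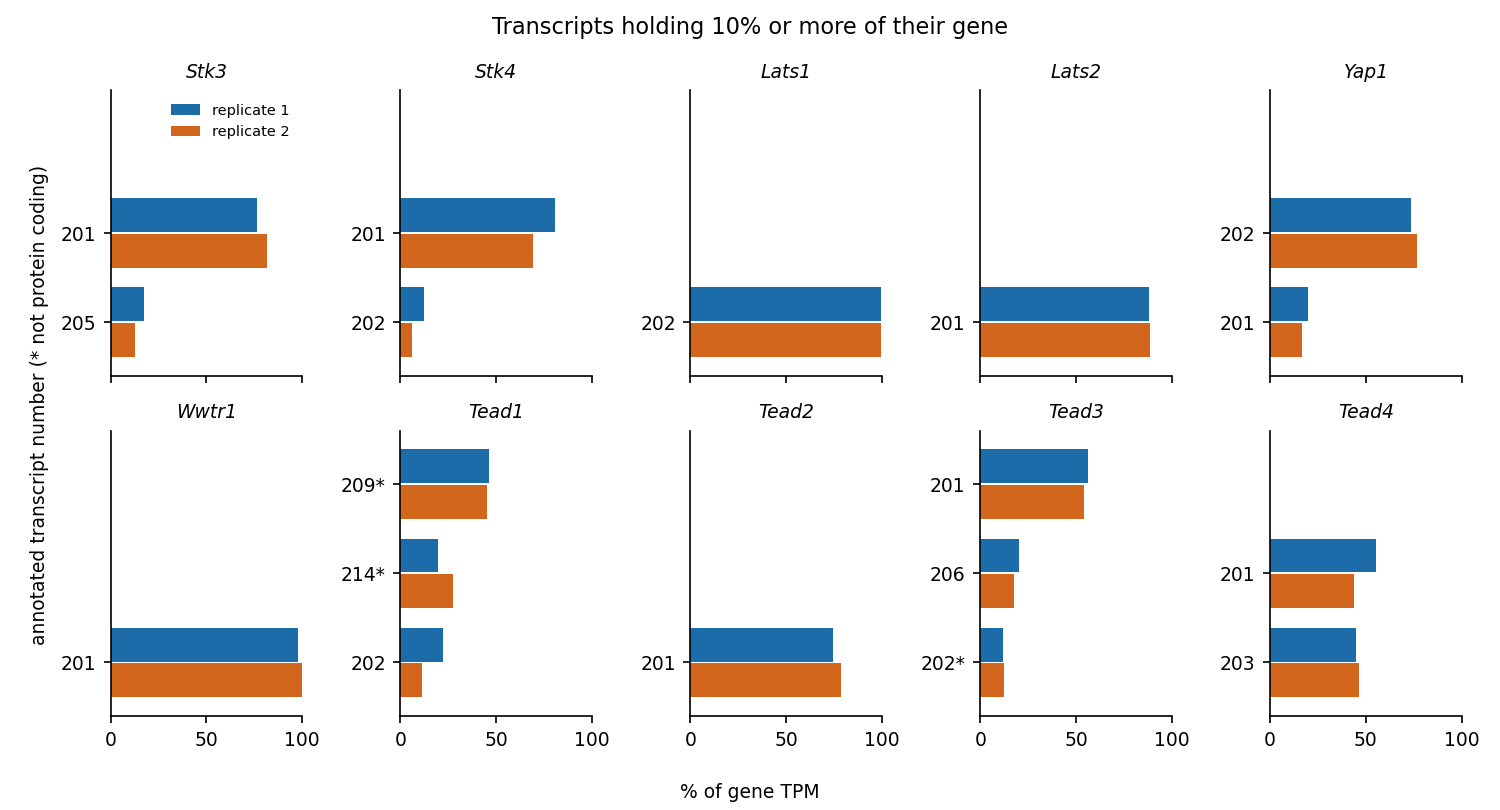
Percent of gene TPM (x axis) of every annotated transcript with at least 10% of its gene in either library, in replicate 1 (blue) and replicate 2 (orange), with 1 panel per gene and an asterisk on transcripts that are not protein coding. Lats1, Lats2, Wwtr1 and Tead2 each have 1 such transcript, while Tead1 and Tead3 have 3 each.

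Between the libraries, none of the 10 genes was called different. Called genes had a Benjamini-Hochberg adjusted p under 0.05 in an exact binomial test of the expected counts and at least a 2-fold ratio of TPM, which 163 of the 15926 genes tested met (1.02%), 67 of them higher in replicate 1 (0.421%) and 96 lower in replicate 1 (0.603%). At an unadjusted p under 0.05 the test gave 5 of the 10 genes, against 29.5% of all genes tested. At an adjusted p under 0.05, without the 2-fold ratio, it gave 3 of the 10 genes, against 3022 of the 15926 genes tested. The log2 ratios of TPM, replicate 1 over replicate 2, had a median size of 0.08 over the 10 genes and of 0.12 over all genes tested.

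Tead1 was the 1 member past the spread of genes of its level. Its TPM was lower in replicate 1 by a log2 ratio of -0.63 against a spread of 0.30 (adjusted p = 6.85e-08, exact binomial test on expected counts), which stays under 2-fold. On library-scaled counts the log2 ratio was -0.33. On the TPM of protein-coding transcripts it was -0.24, within the spread of 0.56 for that measure at the level of Tead1. The mean transcript length behind the gene's TPM was 2848 nt in replicate 1 and 2338 nt in replicate 2, and the gene's TPM divides its counts by a length of this kind. The neuron markers Tubb3 and Stmn2 were also lower in replicate 1, with 7.13 and 5.66 TPM in replicate 1 against 11.5 and 8.79 TPM in replicate 2, while Snap25 (0.37 and 0.25 TPM) and Elavl3 (0.010 and 0.18 TPM) were near 0. Tbx5, a forelimb gene, was higher in replicate 1 (40.0 and 28.4 TPM), and the hindlimb genes Tbx4 (30.6 and 35.1 TPM) and Pitx1 (136 and 164 TPM) were lower in it. The part of these markers in the Tead1 difference was not tested. Yap1 had a log2 ratio of TPM of -0.13 (adjusted p = 0.000389, exact binomial test) within a spread of 0.25. Stk4 had an adjusted p of 0.00686 in the same exact test, with a log2 ratio of -0.10 in TPM and of 0.16 in scaled counts, so its direction depended on the scale.

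**Figure D4:**
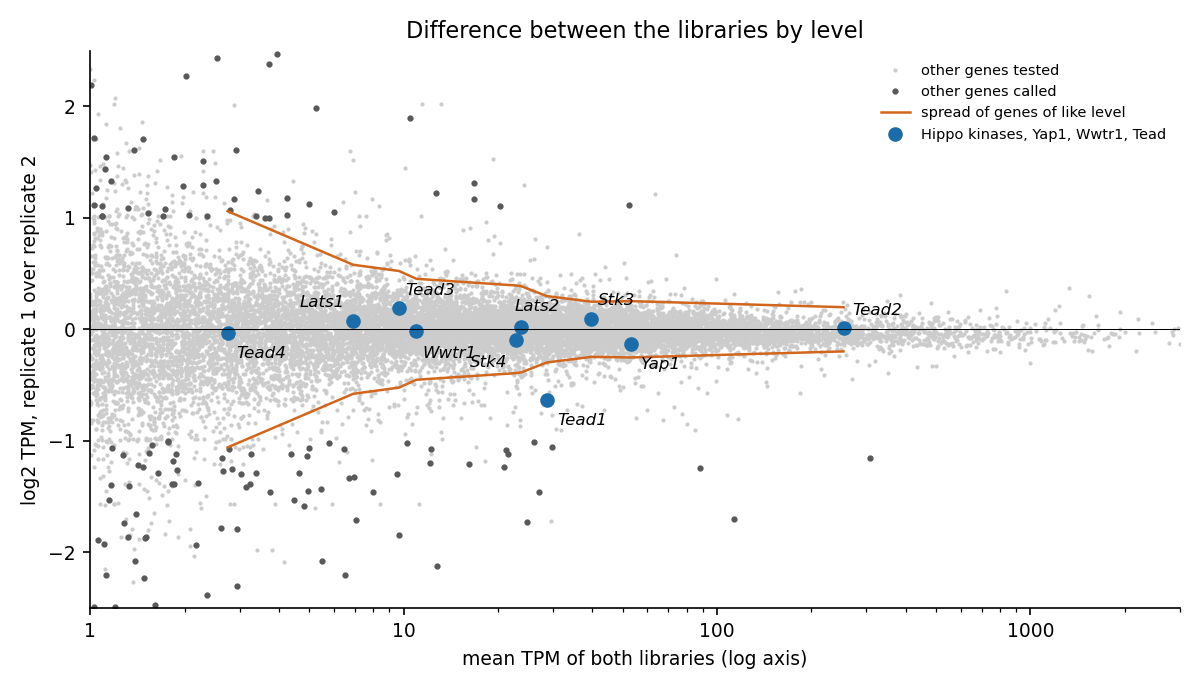
Log2 ratio of TPM, replicate 1 over replicate 2, against the mean TPM of both libraries (log axis) for genes tested (grey), called genes (dark) and the 10 Hippo genes (blue), with the spread of genes of like level as lines; genes outside the axes are not drawn. Tead1, at -0.63, is the 1 labelled gene outside the lines.

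Around these 10 genes, 99 other genes of the pathway were found in the quantification. Of these, 89 were at 1 TPM or more in both libraries, against 15181 of all 55536 genes. None of the 90 with a mean of at least 1 TPM met both the adjusted p and the 2-fold ratio in either direction, against 1.02% of all genes tested. By the exact binomial test alone, 23 of the 90 had an adjusted p under 0.05, against 3022 of the 15926 genes tested. At an unadjusted p under 0.05 there were 35, against 29.5% of all genes tested. Their median level was 36.2 TPM, against 15.3 TPM over all genes tested, and their median log2 ratio of scaled counts was 0.0012, against 0.0032. The genes below are the 3 most abundant and the lowest of each list, with Sav1, Nf2, Ccn1 and Ccn2 added for their known roles after their values had been seen.

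Of the adaptors of the kinases, 8 of 9 were detected in both libraries. Mob1a, which binds and activates Lats, had 53.7 TPM in replicate 1 and 52.2 TPM in replicate 2, above Lats1 and Lats2. Rassf1 and Rassf3, of a family whose members bind Mst kinases, had 50.6 and 47.7 TPM and 17.3 and 16.1 TPM, while Rassf6 was lowest with 0.84 and 0.55 TPM. Sav1, the scaffold of Mst and Lats, had 10.4 and 9.72 TPM, below both Mst genes. All 10 kinases of the Map4k and Tao families, which can act on Lats or Mst, were detected, led by Map4k4 (48.5 and 50.0 TPM), Taok2 (47.1 and 46.5 TPM) and Map4k5 (39.9 and 38.5 TPM) and ending with Taok3 (6.67 and 6.38 TPM). All 5 related kinases of the Ndr and Mst groups were detected too, with Stk25 at 158 and 155 TPM, Stk38 at 106 and 119 TPM, Stk24 at 39.9 and 38.1 TPM, and Stk26 lowest at 16.4 and 15.2 TPM.

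The STRIPAK complex, a phosphatase complex that removes phosphate from Mst kinases, had all 13 listed genes detected. Its scaffold subunit Ppp2r1a had 303 TPM in replicate 1 and 277 TPM in replicate 2, Mob4 had 118 and 127 TPM, Strn4 had 121 and 118 TPM, and Strip2 was lowest with 1.47 and 1.61 TPM. The list's median of 63.01 TPM lies above the level of all kinases among the 10 genes. Among membrane and polarity inputs, 15 of 20 genes were detected, led by Ctnna1 (147 and 156 TPM), Llgl1 (89.0 and 93.3 TPM) and Frmd6 (58.8 and 59.9 TPM), with Fat2 lowest (0.17 and 0.14 TPM). Nf2, which codes for Merlin and recruits Lats to the membrane, had 53.1 and 47.7 TPM.

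Genes for proteins that bind Yap and Taz or lead to their turnover were all detected (21 of 21, Lats1 and Lats2 among them). The 14-3-3 genes Ywhae (834 TPM in replicate 1 and 847 TPM in replicate 2), Ywhaz (650 and 693 TPM) and Ywhaq (618 and 647 TPM) were the most abundant, and Wtip, an Ajuba family gene, was lowest with 6.58 and 7.03 TPM. Of the Vgll cofactors, which bind Tead factors, Vgll4, known to compete with Yap, had 114 and 124 TPM. Vgll4 was thus above Yap1 and below Tead2 in both libraries. Vgll2 had 22.6 and 20.95 TPM, Vgll3 had 6.84 and 4.78 TPM, and Vgll1 had 0.62 and 0.46 TPM.

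Of 22 genes known as targets of Yap, Taz and Tead in other cells, 19 were detected in both libraries, Lats2 among them. The list's median was 23.7 TPM over the 19 genes tested and 12.9 TPM over all 22. Igfbp3 had 95.3 TPM in replicate 1 and 101 TPM in replicate 2, Asap1 had 75.4 and 95.7 TPM, and Tgfb2 had 64.0 and 66.8 TPM. Ankrd1, a target often read as a marker of Yap activity, was lowest with 0.70 and 0.49 TPM. Ccn1 and Ccn2, matricellular proteins read the same way, had 51.4 and 46.8 TPM and 8.56 and 5.96 TPM. The 3 genes so read thus did not share a level. Without a sample in which the pathway is changed, these levels do not measure its activity.

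**Figure D5:**
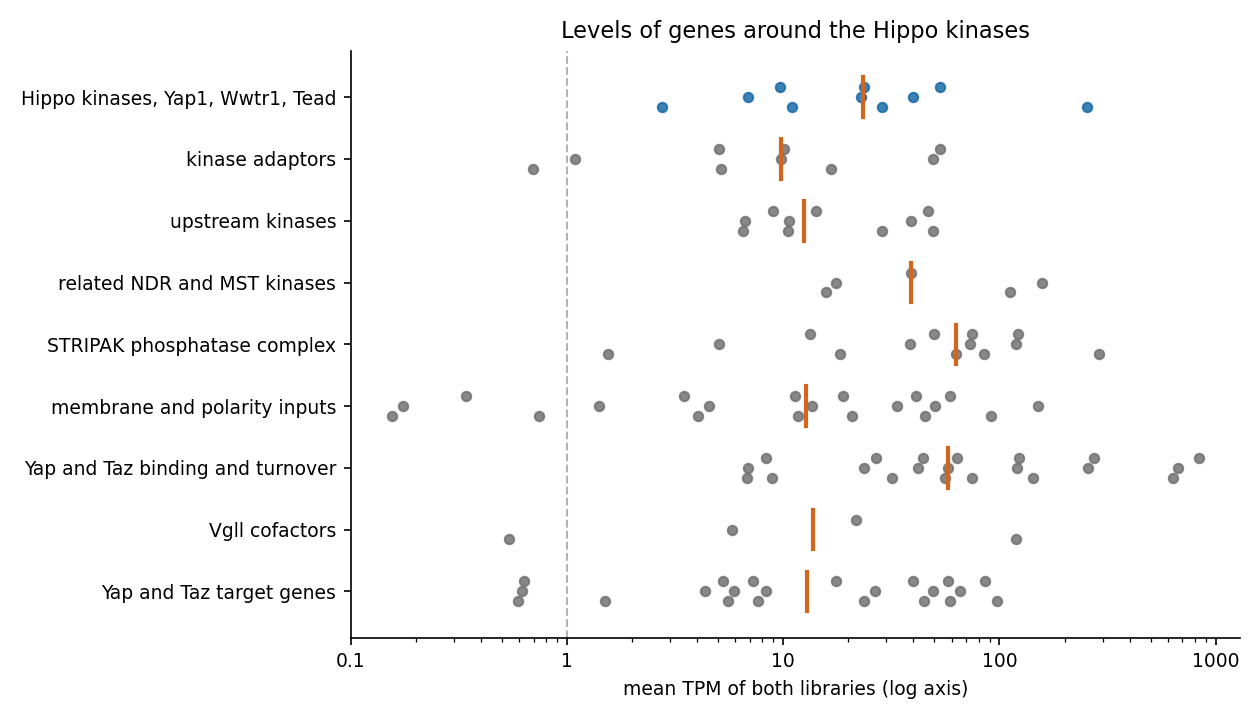
Mean TPM of both libraries (log axis) of every gene found in each list, with the 10 Hippo genes in blue, the other lists in grey and the median of each list as an orange bar; the dashed line is 1 TPM. The 10 genes have a median of 23.3 TPM, and the medians of the other lists lie between 9.78 TPM (kinase adaptors) and 63.01 TPM (STRIPAK).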

How the data were processed

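The authors deposited expected counts per gene and transcript, TPM and FPKM in each library, and the percent of its gene that each transcript holds, in tables laid out as RSEM writes them. Per the submitters' processing notes, GENCODE M21 and GENCODE M4 on mm10 were used; M21 was used here and M4 as an alternative. For the aligner, the use of strand and the level of the authors' TPM intervals, the answer is not given in the sources used here. Whether reads were separated by strand is thus unknown where Yap1 shares 116 exon bases with Gm20416 (0.28 and 0.14 TPM) and Tead2 shares 13 with Cd37 (1.26 and 1.24 TPM), genes on the opposite strand.

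A transcript's share is its TPM as a percent of the TPM summed over all transcripts of the gene. The libraries were compared gene by gene with an exact binomial test, two-sided, of expected counts rounded to whole numbers and TMM library sizes from edgeR 4.0.16, over genes with a mean of at least 1 TPM, with Benjamini-Hochberg adjustment over all of them. Scaled counts carry a prior count of 0.5. These p-values cover counting error between 2 libraries only. The functions were tested on simulated data. Alternatives were DESeq2 1.42.0 size factors, total counts, other minima, a pseudocount of 1, M4, FPKM, protein-coding transcripts, TPM rescaled without spike-ins, the percent column deposited by the authors, and each library alone. Sequences come from the GENCODE M21 transcripts.

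The members and gene lists were chosen with earlier results of these data known. Named were all 10 members, of each pathway list the 3 most abundant genes and the lowest, all markers, and transcripts with 10% or more of their gene or the largest difference in share. Tead1-201, Tead1-215, Tead2-203, Tead2-204, Lats2-207 and Stk4-205 were added after their values were seen. One listed symbol was not found.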

Additional observations from a re-analysis of the deposited data

How the results depend on the processing

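No paired analysis was possible because the samples form 1 group. With protein-coding transcripts, log2 Tead1 over Tead3 reversed to -0.32 and log2 Tead1 over Lats2 to -1.89, while log2 Stk3 over Tead1 reached 2.57 and passed the spread; these follow from the low protein-coding share of Tead1. In each library alone, log2 Stk3 over Tead1 ranged between 0.14 and 0.87, log2 Tead1 over Lats2 between -0.090 and 0.56, and log2 Lats2 over Stk4 between -0.00061 and 0.11; the direction of the last 2 ratios differed between the libraries. With M4, 13 of the 18 ratios passed the spread, as in the M21 TPM. The number was the same with FPKM, which differs from TPM by 1 factor per library. Ratios between genes in FPKM therefore could not differ from those in TPM beyond rounding. The genes called between the libraries numbered 350 with no filter, 36 at a mean of 5 TPM or more and 93 with a pseudocount of 1, against 163; none of the members tested was called under these settings, DESeq2 size factors, total counts or M4. Detected other pathway genes numbered 94 at 0.5 TPM and 77 at 5 TPM, against 89. Mean levels of the 10 members lay above the main value by more than 1 SD for 7 with M4 and for 8 with TPM rescaled without spike-ins, tRNA entries and mitochondrial genes, and below it for 6 over protein-coding transcripts, among them Tead1 at 6.34 TPM against 28.6 TPM. The deposited percent column moved none of the 10 leading shares by more than 1 SD or 0.05 percentage points. It holds the same share of TPM as computed by the authors, so it is no independent check. Depth limits Tead4 most, with 127 and 116 reads.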
